A study of Mus musculus with 38 samples.

Results

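The comparison was between CD45+ cells of nevus skin and CD45+ cells of wild type skin in the growth phase of the hair cycle. CD45 is the surface phosphatase that marks leukocytes, so these cells are the immune cells of the dorsal skin. The members were chosen by their labels: 2 libraries from mutant mice at postnatal day 56 (P56) and 2 from wild type mice at day 30 (P30), 4 of the 38 libraries of the series. Mutant mice carry an oncogenic *Nras* driven in melanocytes by the tyrosinase promoter, which models congenital hairy nevi, and the wild type mice lack it. Hair follicles of wild type skin grow at P30 (anagen) and rest at P56 (telogen). The P30 wild type cells are thus a control in the growth phase. They differ from the mutant cells in genotype and in age, which cannot be told apart here. Y-linked transcripts also differed between the groups, as given below. Levels in 2 CD45+ libraries of wild type mice at P56 are given beside the comparison for reference.

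Mouse skin holds several resident immune populations. Langerhans cells are phagocytes of the epidermis that carry the lectin langerin, and dendritic epidermal T cells are gamma delta T cells that lie beside them and make up most epidermal lymphocytes. The dermis holds macrophages, dendritic cells, mast cells, regulatory T cells and gamma delta T cells that make interleukin 17, while monocytes and neutrophils enter from blood. In bulk libraries of sorted cells, fewer cells of a type and less RNA per cell cannot be told apart.

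Values are FPKM, read fragments scaled to transcript length and library size. Of 31002 genes listed, 21930 were protein-coding and 12272 of these reached 1 FPKM in at least 2 of the 4 libraries and were tested, while 410 reached it in 1 library and 9248 in none. A gene that reached it through 1 group only was bound to differ between the groups. This held for 419 tested genes through the mutant libraries (199 of them called higher, 25 in the lists used below) and for 508 through the P30 libraries (238 called lower, 9 in the lists). Such genes are counted below where they were called. Rises were 2 each among interferon-response genes and matrix proteases and inhibitors and 1 each among type 17 markers and regulatory T cell markers. Cytokines (*Il12b*), chemokines (*Ppbp*) and genes of lysosomes and lipid handling (*Atp6v0d2*) also held 1 rise each. Falls were 2 among keratinocyte markers and 1 among follicle growth factors (*Fgf7*). Those in shorter lists are named beside them. Between 12527 and 12620 listed genes stood at 1 FPKM or more in these 4 libraries. *Ptprc*, which encodes CD45, was 223 and 214 FPKM in the P30 wild type libraries, 239.7 and 255 in the P56 mutant ones and 365 and 360.4 in the P56 wild type ones. All 12 leukocyte markers were tested and 1, *Cd52*, was called, and in P56 wild type libraries *Ptprc* stood above both other groups. Of the CD45+ libraries, 3 Y-linked genes looked at were above 0 only in P30 wild type: *Ddx3y* was 5.67 and 5.21 FPKM there, *Eif2s3y* 10.2 and 9.47 and *Uty* 1.14 and 1.15, and each was listed at 0 in the other 4 CD45+ libraries. *Xist*, which is transcribed from the inactive X of females, was 14.5 and 14 FPKM in these P30 libraries, 15.0 and 16.6 in mutant and 23.2 and 24.6 in P56 wild type libraries. The part of sex in the differences below was not tested.

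Of the 12272 genes, 1161 were called higher in mutant cells (9.46%) and 1076 lower (8.77%), together 18.2%. Calls needed a limma p below 0.05 after Benjamini-Hochberg adjustment together with at least a 2-fold difference in FPKM + 1. On the log2 scale of that quantity the median change of all tested genes was 0.05. Of the called genes, 205 rose and 137 fell by 4-fold or more. The replicate libraries were close, with correlations across genes of 0.9949 to 0.9965, and the adjusted p alone passed for 8558 genes, so the 2-fold threshold set most calls. In 84.1% of tested genes the libraries of the 2 groups did not overlap. Numbers after a gene below are log2 changes of FPKM + 1, mutant over P30 wild type, ± SE, and levels are FPKM of the 2 libraries of a group.

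**Figure D1:**
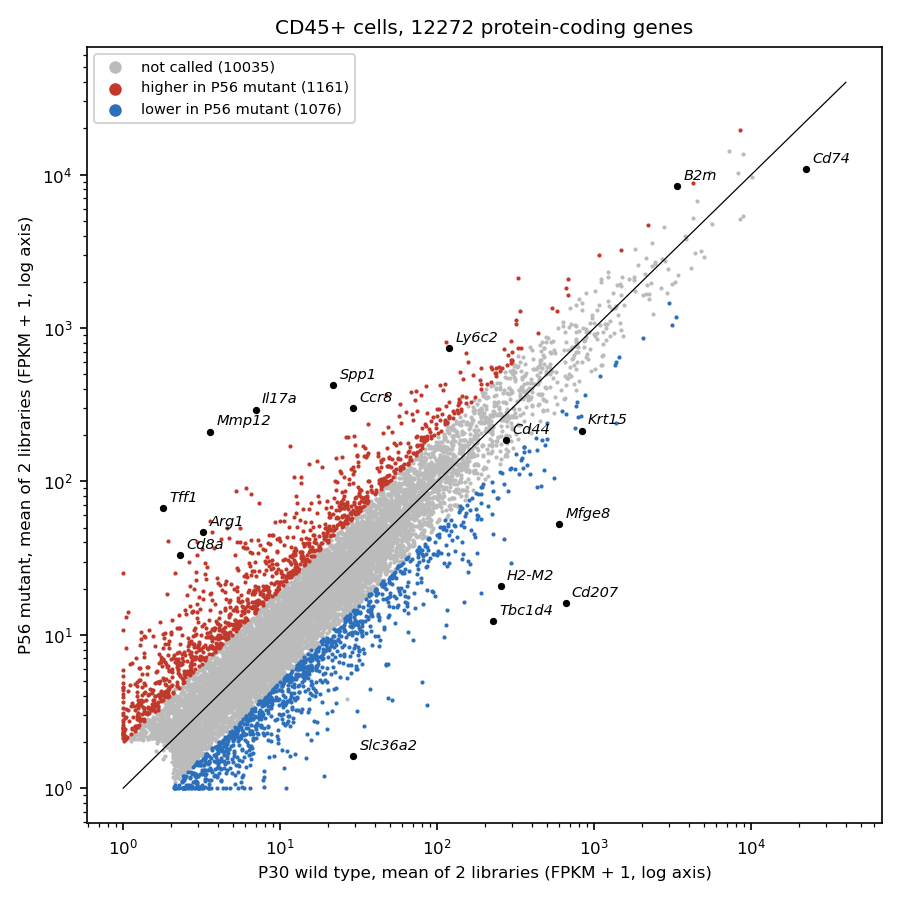
Mean FPKM + 1 of each tested gene in P30 wild type (horizontal, log axis) and P56 mutant CD45+ cells (vertical, log axis), each point a gene and the line equal levels, with 1161 genes called higher in red, 1076 lower in blue and the rest grey. *Cd207* lies farthest below the line and *Mmp12* and *Il17a* far above it.

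The largest fall was in the gene of langerin, and every marker of Langerhans cells fell. *Cd207* (langerin, ENSMUSG00000034783.7, chr6:83671215-83677857, minus strand, GRCm38) was 646 and 663 FPKM in the P30 wild type libraries and 14.4 and 15.6 in the mutant ones, a change of -5.36 ± 0.056 (adjusted p = 2.15e-08). It was 765 and 735 in the P56 wild type libraries, so the 2 mutant libraries stood below all 4 wild type ones. All 5 Langerhans cell markers fell, with a median change of -2.62 against 0.05 for all genes. *Mfge8*, which encodes a secreted protein that bridges dying cells to phagocytes (chr7:79133768-79149060), went from 576 and 614 to 49.1 and 54.7 FPKM (-3.49 ± 0.071). The epithelial adhesion gene *Epcam* went from 155 and 155 to 23.5 and 25.4 (-2.62 ± 0.058), and *Cdh1*, which encodes E-cadherin, from 85.8 and 84.5 to 18.4 and 18.5 (-2.15 ± 0.054). The summed level of the 5 markers was 1639.5 and 1696 FPKM in P30 wild type, 165 and 173 in mutant and 1522 and 1458 in P56 wild type libraries. *Epcam* and *Cdh1* are also expressed by keratinocytes, whose markers moved the same way and are given below.

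The 12 largest falls were chosen with both mutant libraries below both P30 libraries, so that part of their layout was fixed. In the other 10 of the 12, both mutant libraries were also below both P56 wild type libraries. The share of all called falls with this layout was not computed. *Tbc1d4*, a regulator of Rab GTPases in vesicle transport, went from 229.9 and 221 to 10.99 and 11.6 FPKM (-4.2 ± 0.056) and was 193 and 189 in P56 wild type cells. The nonclassical class I gene *H2-M2* went from 247 and 258 to 19.2 and 20.3 (-3.61 ± 0.056), and *Ptgs1*, which encodes cyclooxygenase 1, from 107 and 111 to 8.84 and 8.35 (-3.52 ± 0.065). *P2rx2*, an ATP-gated ion channel, went from 77.5 and 79.5 to 4.01 and 3.8 (-4.02 ± 0.069), and *Adrb1*, the beta-1 adrenergic receptor, from 33.2 and 32.6 to 1.72 and 1.38 (-3.74 ± 0.093). The rest were *F830045P16Rik* (-4.65 ± 0.12), the amino acid transporter gene *Slc36a2* (-4.19 ± 0.12), the fatty acid transporter gene *Slc27a2* (-3.99 ± 0.14), the cytochrome gene *Cyp4f37* (-3.77 ± 0.08) and the collagen gene *Col16a1* (-3.66 ± 0.096). In P56 wild type libraries *Slc27a2* was 7.49 and 6.04 FPKM against 17.6 and 18.2 at P30, the widest gap between wild type ages among these 10.

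Among the 12 largest rises were genes of T cells (*Il17a*, *Il17f*, *Ifng*, *Ctla4*, *Tnfrsf4*, *Cd8a*) and genes expressed by activated macrophages (*Mmp12*, *Spp1*, *Arg1*). *Il17a*, which encodes the cytokine interleukin 17A (ENSMUSG00000025929.4, chr1:20730905-20734496, plus strand), was 6.3 and 5.65 FPKM in P30 wild type and 298 and 287 in mutant libraries (5.4 ± 0.072, adjusted p = 4.31e-08). In P56 wild type libraries it was 14.98 and 15.8. Its neighbour *Il17f* (chr1:20777146-20790617, minus strand), the closest relative of *Il17a*, went from 3.96 and 4.44 to 84.97 and 85.03 (4.05 ± 0.078). Of the 11 gamma delta T and type 17 markers 10 rose, none fell and the median change was 2.5. *Blk*, a Src family kinase used by interleukin 17-producing gamma delta T cells, went from 3.34 and 3.05 to 38.98 and 43.2 (3.33 ± 0.097). *Il22* was the member not called, at 1.04 and 0.67 FPKM in P30 wild type and 1.61 and 1.81 in mutant libraries, and its level was 9.39 and 8.11 in P56 wild type ones. The list's summed level was 63.02 and 64.5 FPKM at P30, 621 and 623 in mutant and 91.04 and 88.4 in P56 wild type libraries.

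Regulatory T cell markers rose in 7 of 9 members, with none falling and a median of 2.06. *Ctla4*, the inhibitory receptor, went from 4.66 and 5.46 to 86.7 and 91.8 FPKM (3.9 ± 0.087), and *Tnfrsf4*, which encodes the costimulatory receptor OX40, from 10.1 and 10.9 to 159 and 178 (3.88 ± 0.077). *Icos*, another costimulatory receptor, went from 15.6 and 16.6 to 134 and 136 (2.99 ± 0.058), and *Il2ra*, the alpha chain of the interleukin 2 receptor, from 2.37 and 2.78 to 18.4 and 16.7 (2.37 ± 0.11). The lineage factor *Foxp3* was lower in level, at 0.87 and 1.03 FPKM in P30 wild type, 7.64 and 6.69 in mutant and 1.95 and 2.27 in P56 wild type libraries (2.06 ± 0.11). *Ctla4*, *Icos* and *Tnfrsf4* are also carried by activated T cells that are not regulatory.

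T cell markers moved both ways: 6 of 18 rose, 3 fell and the median change was 0.08. The rises were in coreceptors and in receptors that tune the T cell response. *Cd8a*, the alpha chain of CD8 (chr6:71373427-71379173), went from 1.38 and 1.22 to 32.1 and 32.1 FPKM (3.85 ± 0.092) and *Cd8b1*, its beta chain, from 2.3 and 2.01 to 35.9 and 34.9 (3.53 ± 0.099). *Cd6* (3.44 ± 0.09) and *Cd5* (2.85 ± 0.072), which encode scavenger-type receptors that tune T cell receptor signals, rose as well, as did *Cd28* (2.62 ± 0.078) and *Cd4* (1.52 ± 0.085). The falls included parts of the T cell receptor complex: *Cd3e* went from 1364 and 1391 to 241 and 239.8 FPKM (-2.51 ± 0.054) and *Cd247*, the zeta chain, from 641 and 676 to 266 and 282 (-1.26 ± 0.055). *Cd3g*, the member with the highest level, was 3055 and 3172 in P30 wild type and 1963 and 1896 in mutant libraries (-0.69 ± 0.049, not called) and 4381 and 4419.8 in P56 wild type ones. The summed level of the list was 6870.1 and 7094 FPKM at P30, 4224 and 4205 in mutant and 9193 and 9191 in P56 wild type cells, and *Cd3g* and *Cd3e* made up most of it at P30.

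Of 19 markers of natural killer cells, innate lymphocytes and cytotoxic cells 8 rose and 3 fell (median 0.57). *Ifng*, which encodes interferon gamma, went from 2.47 and 2.64 to 56.5 and 52.6 FPKM (3.97 ± 0.078), and *Tbx21*, which encodes the type 1 factor T-bet, from 4.17 and 3.58 to 20.5 and 20.6 (2.15 ± 0.094). The protease gene *Gzmb* went from 5.84 and 5.15 to 80.2 and 82.3 (3.67 ± 0.076) and *Gzma* from 29.8 and 27.6 to 172 and 173 (2.55 ± 0.069). *Il2rb*, the interleukin 2 receptor beta chain, went the other way, from 758 and 816 to 248 and 275 (-1.59 ± 0.07), as did the pore-forming *Prf1* (-1.38 ± 0.062) and the growth factor gene *Areg* (-1.52 ± 0.052). *Nkg7*, which encodes a granule protein, was 2297 and 2459.9 in P30 and 1191 and 1277 in mutant libraries (-0.95 ± 0.058, not called). In P56 wild type cells *Ifng* was 14.6 and 15.1 FPKM and *Gzmb* 19.2 and 19.6, above the P30 and below the mutant libraries.

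**Figure D2:**
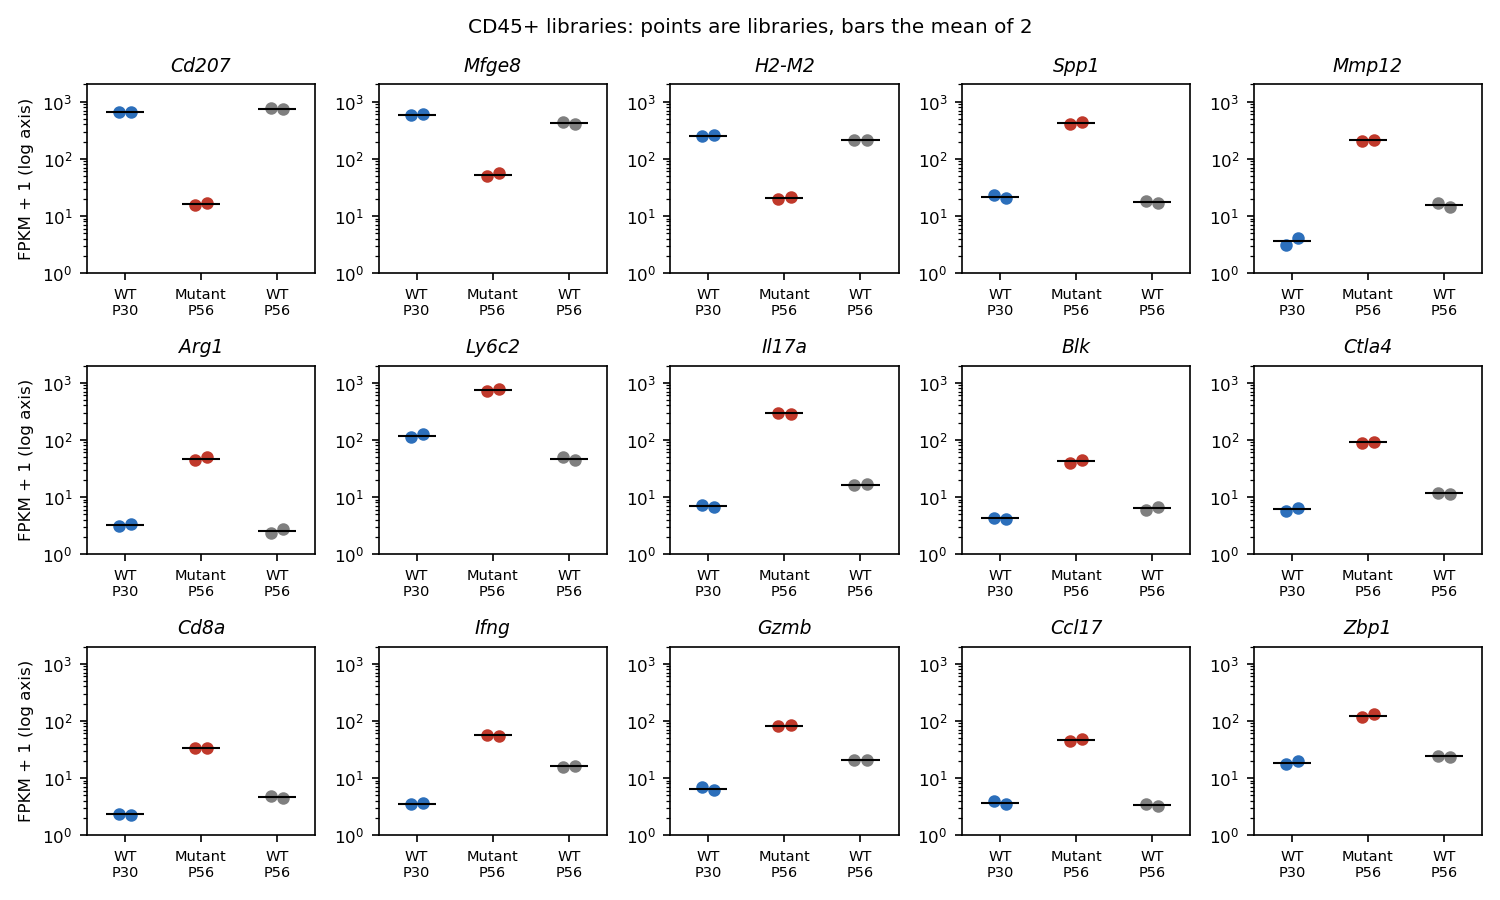
FPKM + 1 (log axis) of named genes in each CD45+ library of P30 wild type, P56 mutant and P56 wild type mice, with points for libraries and bars for the mean of 2. *Cd207*, *Mfge8* and *H2-M2* are low in both mutant libraries, and the other genes shown are higher in both mutant libraries than in all 4 wild type libraries.

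Within the CD45+ cells, markers of monocytes rose together: 7 of 10 were called higher, none lower, and the median was 1.67. *Ly6c2*, the Ly6C antigen of inflammatory monocytes, went from 112 and 124 to 708 and 775 FPKM (2.64 ± 0.083) and was 48.8 and 43.3 in P56 wild type cells, although reads may be shared with its near copy *Ly6c1*. *Ms4a4c* (2.71 ± 0.14), *Chil3* (2.53 ± 0.12), which encodes a chitinase-like lectin, and *Plac8* (2.41 ± 0.077) were the other leading members. *Ccr2*, the receptor by which monocytes leave the marrow, went from 73.5 and 72.4 to 197 and 198 (1.43 ± 0.057). The list's summed level was 501 and 511 FPKM at P30, 1949 and 2086 in mutant and 188 and 195 in P56 wild type libraries.

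Macrophage markers rose in 5 of 20 members and fell in 1 (median 0.33). *Ms4a7* (26.8 and 29.9 to 195 and 201 FPKM, 2.76 ± 0.079), *Fcgr1*, the high-affinity IgG receptor (2.06 ± 0.09), and *Cd14*, the endotoxin coreceptor (1.82 ± 0.059), rose. *Cd163*, the haemoglobin scavenger receptor of resident macrophages, fell from 41.6 and 40.4 to 8.92 and 8.59 (-2.11 ± 0.069). Among general markers *Cd68* rose (1.07 ± 0.055), while *Adgre1* (-0.28 ± 0.058) and *Csf1r* (-0.71 ± 0.066) were not called. Neutrophil markers rose in 5 of 13 tested members and fell in 1 (median 0.57). *S100a8* and *S100a9*, whose products form calprotectin, changed by 2.17 ± 0.078 and 1.35 ± 0.079, and the protease inhibitor gene *Stfa2l1*, one of a family of near copies, by 1.39 ± 0.11. *Ly6g*, the defining neutrophil antigen, stayed low at 0.09 and 0.86 FPKM in P30 wild type and 1.97 and 1.23 in mutant libraries. *Il1r2*, a decoy receptor for interleukin 1 that is not limited to neutrophils, fell from 729.6 and 768 to 208 and 236 (-1.75 ± 0.07).

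Dendritic cell markers rose in 6 of 16 members and fell in none (median 0.56). The leading ones were chemokine genes, *Ccl17* (2.88 and 2.5 to 43.8 and 47.1 FPKM, 3.66 ± 0.10) and *Ccl22* (6.29 and 6.22 to 40.6 and 39.9, 2.51 ± 0.071), whose products bind CCR4. *Ccr7*, the receptor for migration to lymph nodes, went from 56.7 and 56.5 to 168 and 186 (1.63 ± 0.067), and *Siglech*, a plasmacytoid cell receptor, from 4.17 and 4.69 to 9.94 and 11.6 (1.11 ± 0.12). The factor genes *Irf8* (1.09 ± 0.106) and *Batf3* (1.01 ± 0.107) rose too. The subset markers *Xcr1* (0.39 ± 0.102), *Clec9a* (0.097 ± 0.13) and *Cd209a* (0.53 ± 0.076) were not called.

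**Figure D3:**
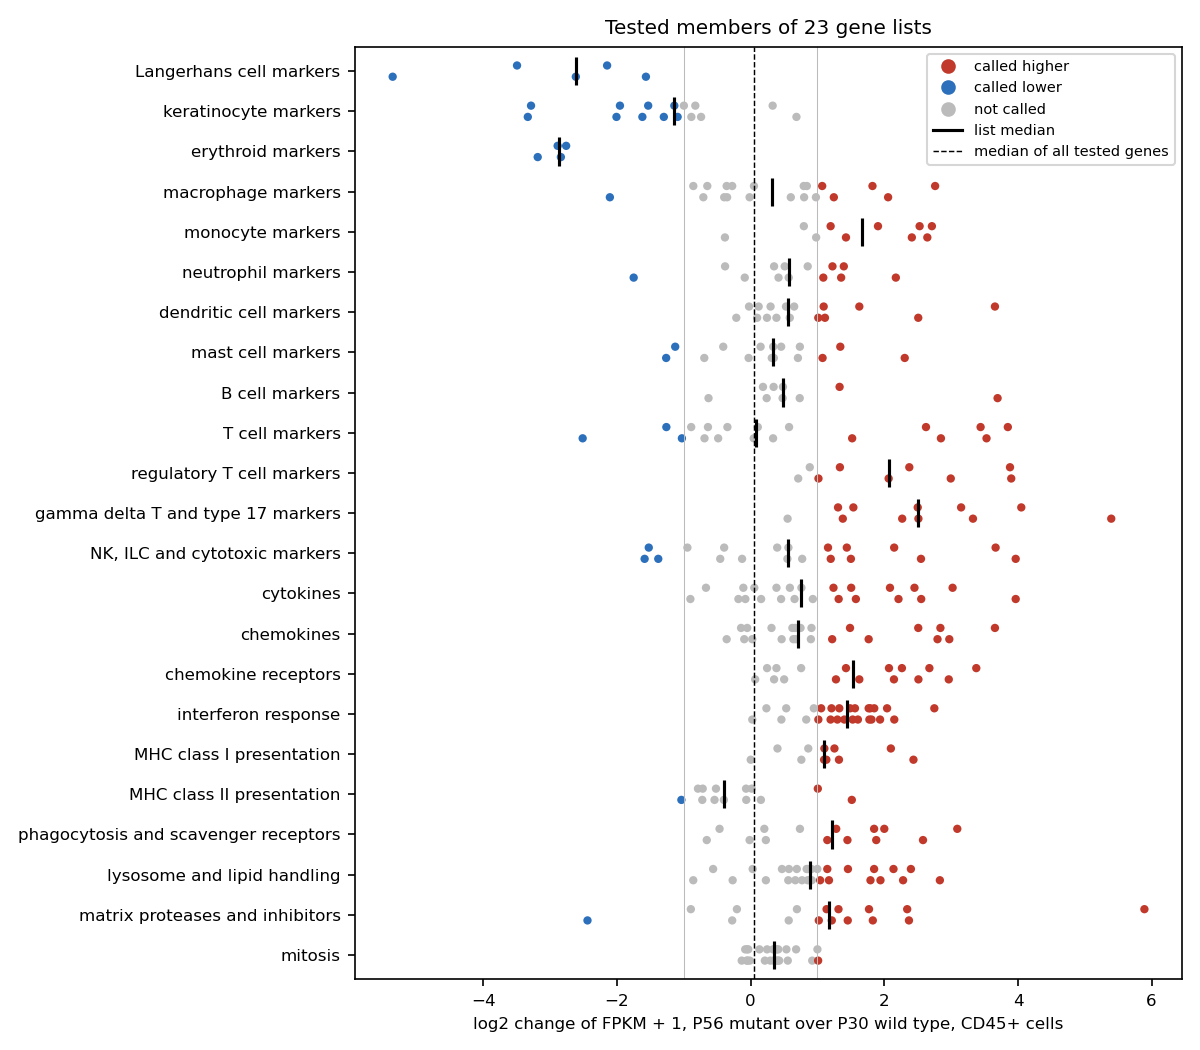
Log2 change of FPKM + 1 (P56 mutant over P30 wild type, horizontal) of every tested member of the gene lists named on the vertical axis, with red points called higher, blue points called lower, grey points not called, short black lines at list medians and the dashed line at the median of all tested genes, 0.05. Medians of the Langerhans cell, keratinocyte and erythroid lists lie left of -1. Those of the type 17, regulatory T cell, monocyte, chemokine receptor, interferon, phagocytosis, matrix protease and MHC class I lists lie right of 1.

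*Spp1*, which encodes osteopontin (ENSMUSG00000029304.14, chr5:104435118-104441050, plus strand), had the sixth largest rise among genes at 5 FPKM or more. It stood at 22.1 and 19.4 FPKM in the P30 wild type libraries and at 402 and 445 in the mutant ones (4.29 ± 0.084, adjusted p = 1.8e-07). In P56 wild type libraries it was 17.3 and 16.1, so the mutant libraries were above all 4 wild type libraries. None of its 8 tested receptor genes was called, although 1 was with a pseudocount of 0.1. *Cd44* was 277 and 270.3 FPKM in P30 wild type, 186 and 185 in mutant and 329.9 and 337 in P56 wild type libraries (-0.56 ± 0.047). Integrin genes changed by -0.14 (*Itga9*) to 0.86 (*Itgb3*). *Nras* itself was 25.01 and 25.9 FPKM in P30 and 40.4 and 39.1 in mutant libraries (0.63 ± 0.061, not called), and whether reads of the mutant transgene count under this gene is not stated.

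Matrix proteases and their inhibitors rose in 10 of 16 tested members and fell in 1 (median 1.18). *Mmp12*, the macrophage elastase (chr9:7344381-7369499), showed the largest rise among called genes, from 2.11 and 3.06 to 205 and 215 FPKM (5.89 ± 0.14), and was 15.9 and 13.4 in P56 wild type cells. *Timp1*, a metalloproteinase inhibitor, changed by 2.37 ± 0.13 and *Mmp19* by 2.34 ± 0.099. *Mmp9*, which Langerhans cells use to leave the epidermis among other roles, fell from 94.03 and 97 to 15.8 and 17.8 (-2.44 ± 0.07). Genes of lysosomes and lipid handling rose in 11 of 29 members, with none falling (median 0.88). The fatty acid carrier gene *Fabp4* went from 13.3 and 11.9 to 101 and 91.5 (2.83 ± 0.083), the lipid-sensing receptor gene *Trem2* from 22 and 23.9 to 108 and 123 (2.28 ± 0.11), the proton pump subunit gene *Atp6v0d2* from 0.8 and 0.81 to 7.66 and 9.45 (2.4 ± 0.12) and the cathepsin gene *Ctsk* from 1.74 and 2.13 to 11.7 and 12.04 (2.14 ± 0.13). Phagocytosis and scavenger receptors rose in 8 of 14 tested members (median 1.21), led by the lectin gene *Clec4d* (3.09 ± 0.14), *Cd300lf* (2.58 ± 0.16), the IgG receptor gene *Fcgr4* (2.0 ± 0.102) and *Axl* (1.88 ± 0.095), a receptor for apoptotic cells. *Arg1*, which encodes arginase 1, went from 2.1 and 2.37 to 43.2 and 48.3 FPKM (3.85 ± 0.12).

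Genes of chemokines, chemokine receptors and cytokines rose more often than they fell. Chemokine genes rose in 8 of 22 tested members and fell in none (median 0.71). Beside *Ccl17*, the largest changes were in *Cxcl3*, a neutrophil attractant (1.48 and 1.84 to 18.6 and 21.2 FPKM, 2.97 ± 0.12), *Ccl5*, which attracts T cells (109 and 115 to 815 and 801, 2.84 ± 0.05), and the platelet chemokine gene *Ppbp* (2.8 ± 0.11). Chemokine receptors rose in 10 of 16 members (median 1.53). *Ccr8*, found on skin T cells, went from 25.6 and 30.8 to 290.1 and 311 (3.38 ± 0.089) and was 114 and 111 in P56 wild type libraries, and *Cxcr6* went from 46.5 and 45.3 to 342 and 389 (2.96 ± 0.071) and was 218 and 206. *Cxcr3*, the receptor for interferon-induced chemokines, changed by 2.67 ± 0.081 and *Ccr6*, a type 17 receptor, by 2.51 ± 0.078. Cytokine genes rose in 10 of 23 members (median 0.76). After *Ifng*, these were led by *Csf2*, which encodes GM-CSF (2.72 and 2.09 to 30.3 and 23.2, 3.02 ± 0.15), *Il12b* (2.55 ± 0.10) and the lymphotoxin gene *Ltb* (2.45 ± 0.089). *Csf2* was 16.4 and 18.5 FPKM in P56 wild type cells, between the P30 and the mutant libraries.

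Of 17 tested growth factors that act on hair follicles 1 rose and 3 fell (median -0.06), and 3 rose under quantile normalization and with a pseudocount of 0.1. *Areg*, an EGF receptor ligand, went from 357 and 344 to 124 and 119 FPKM (-1.52 ± 0.052) and was 566 and 543 in P56 wild type cells. *Jag1*, a Notch ligand that regulatory T cells present to follicle stem cells, went from 2.91 and 3.1 to 11.1 and 10.5 (1.56 ± 0.103). *Wnt7b* (-1.12 ± 0.12) and *Fgf7* (-1.01 ± 0.12) fell from levels of 3.67 and 4.59 and of 1.93 and 1.88. Rises of *Tff1*, a secreted trefoil peptide (0.5 and 1.09 to 66.3 and 65.5, 5.24 ± 0.203), and of *Rln3*, which encodes the peptide relaxin 3 (0.63 and 1.21 to 38.2 and 41.2, 4.42 ± 0.16), were among the 12 largest. *Ccl27b* was listed at 0 in both P30 wild type libraries and at 28.3 and 20.1 FPKM in the mutant ones, but at 0 and 13.5 in the P56 wild type ones. This gene has near-identical copies, so its values are uncertain.

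Interferon-response genes rose in 20 of 26 tested members, with none falling, and their median change was 1.45. *Zbp1*, a nucleic acid sensor, went from 16.2 and 18.6 to 117 and 128 FPKM (2.75 ± 0.085), *Oasl2* from 10.6 and 10.2 to 51.1 and 47.9 (2.15 ± 0.075), the antiviral GTPase gene *Mx1* from 2.67 and 2.99 to 14.4 and 15.1 (2.04 ± 0.099) and *Ifit2* from 1.99 and 1.65 to 9.48 and 10.1 (1.94 ± 0.11). *Isg15* (0.24 ± 0.06) and *Cxcl10* (0.02 ± 0.056) were not called. Genes of MHC class I presentation rose in 7 of 11 members (median 1.1). They included *Nlrc5*, the class I transactivator (2.78 and 3.24 to 20.8 and 20.6, 2.44 ± 0.093), the immunoproteasome genes *Psmb9* (2.1 ± 0.068) and *Psmb8* (1.25 ± 0.096), and *B2m*, the class I light chain (3394 and 3316 to 8603 and 8171, 1.32 ± 0.063, and 0.96 under quantile normalization). MHC class II genes did not share this: their median was -0.40, with 2 of 13 rising and 1 falling. *Cd74*, the class II invariant chain, had 21431 and 23076 FPKM at P30 and 10674 and 11018 in mutant cells (-1.04 ± 0.059), which was under 2-fold under quantile normalization (-0.84) and without P30 replicate 2 (-0.98). The costimulatory genes *Cd40* (1.51 ± 0.069) and *Cd80* (1.01 ± 0.102) rose, the latter by under 2-fold under median-ratio scaling (0.96) and without P30 replicate 1 or mutant replicate 2 (0.97 each).

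Promoter sequences of the interferon list were also looked at. The list was chosen as interferon-response genes, so its share of matches can follow from that choice and is not a result of these data. Interferon-activated factors bind a DNA element whose core can be written GAAANNGAAA. The 250 bases before the transcription start were searched on both strands for it, overlapping matches included, in RefSeq promoters of GRCm38.p6. Of 20 interferon-list genes with a promoter in the table, 12 held a match (60%), against 936 of 27025 genes in the table (3.46%) and 315 of 9373 tested genes (3.36%). Of the 15 members that rose and had a promoter, 8 held one (53.3%, against 60% for the list), so matches were not more common among them. Of 866 genes called higher 66 (7.62%) held one, and of 807 called lower 17 (2.11%). The stretches below, each of 100 bases, are from the 4 rising members with a match and the largest changes, *Ifit3* (1.79 ± 0.099, chr19:34583362-34583461 on the plus strand), *Oas1a* (1.78 ± 0.065, chr5:120907526-120907625 on the minus strand), *Gbp3* (1.6 ± 0.082, chr3:142559944-142560043 on the plus strand) and *Igtp* (1.56 ± 0.073, chr11:58199456-58199555 on the plus strand). The stretches of *Oas1a*, *Gbp3* and *Igtp* end at the base before the start and 67 bases lie between that of *Ifit3* and its start. They are written 5′ to 3′ along the gene, with matches in capitals. In *Oas1a* and *Gbp3* a pair of matches overlap, so that their capitals form a longer run. A match is a description of the letters and not evidence of binding.
Ifit3: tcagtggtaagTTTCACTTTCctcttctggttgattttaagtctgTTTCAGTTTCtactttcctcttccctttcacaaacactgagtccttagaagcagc
Oas1a: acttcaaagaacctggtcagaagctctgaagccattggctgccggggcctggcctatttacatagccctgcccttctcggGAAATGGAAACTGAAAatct
Gbp3: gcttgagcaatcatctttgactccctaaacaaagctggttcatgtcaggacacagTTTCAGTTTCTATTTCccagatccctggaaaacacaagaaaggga
Igtp: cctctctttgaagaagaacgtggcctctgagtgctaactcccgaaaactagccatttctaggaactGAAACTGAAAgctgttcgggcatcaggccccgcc

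Mast cell markers rose in 3 and fell in 2 of 15 members (median 0.34). The IgE receptor gene *Fcer1a* went from 1.1 and 1.33 to 8.8 and 11.2 FPKM (2.31 ± 0.13) and *Kit* from 3.01 and 3.94 to 10.2 and 10.4 (1.34 ± 0.15), while the prostaglandin synthase gene *Hpgds* (-1.26 ± 0.073) and the factor gene *Gata2* (-1.13 ± 0.23) fell. The protease gene *Cpa3* rose (1.08 ± 0.062). The proteases *Mcpt4* (0.15 ± 0.051) and *Cma1* (0.74 ± 0.067), the most abundant members beside *Tpsb2* (0.71 ± 0.064), were not called. Of 9 tested B cell markers 2 rose (median 0.48): *Jchain*, made by plasma cells, from 0.11 and 0.05 to 12.4 and 13.6 (3.69 ± 0.103), which passed the filter through the mutant libraries only, and the adaptor gene *Blnk* (1.33 ± 0.084), which myeloid cells also express. The defining marker *Ms4a1* (1.44 and 1.6 FPKM at P30, 2.03 and 1.92 in mutant) was not called. Eosinophil and basophil markers gave 1 rise, the granule protein gene *Prg2* (1.48 ± 0.16), which passed the filter through the mutant libraries only, and 1 fall, *Siglecf* (-1.74 ± 0.14), among 6 tested (median 0.38).

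Transcripts of skin cells that do not carry CD45 were present in all 6 CD45+ libraries and differed between groups. Keratinocyte markers fell in 9 of 15 members and rose in none (median -1.14), with summed levels of 3138 and 3273 FPKM in P30 wild type, 1210.4 and 1275 in mutant and 2009 and 1868 in P56 wild type libraries. *Krt10* (189.6 and 187 to 16.6 and 19.1, -3.33 ± 0.13) and *Krt1* (112 and 113 to 11.1 and 10.2, -3.29 ± 0.068), keratins of the outer epidermal layers, fell most, followed by the basal *Krt5* (-2.01 ± 0.052) and the follicle *Krt15* (806 and 851 to 211 and 215, -1.96 ± 0.051). This fall had the direction of the Langerhans cell fall. In P56 wild type libraries *Krt10* was 70.2 and 52.5 FPKM and *Krt1* 38.2 and 35.5. The part of keratinocyte transcripts in the Langerhans cell result was not tested.

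Keratins of the growing hair followed another order. *Krt71*, which is expressed in the inner root sheath, was 79.5 and 87.4 FPKM in P30 wild type and 86.5 and 91.5 in mutant libraries (0.09 ± 0.077) and listed at 0 in both P56 wild type libraries. *Krt25* (22.9 and 21.4 at P30, 34.5 and 37.2 in mutant), *Krt27* (27.5 and 27.3 at P30, 31.4 and 28.9 in mutant), *Krt28* (27.97 and 28.2 at P30, 33.8 and 39.6 in mutant) and the hair matrix keratin *Krt35* (66.4 and 69.3 at P30, 54.8 and 61.98 in mutant) had the same layout and were not called, each at 0 in the P56 wild type libraries. Of 15 tested genes of hair matrix and shaft 3 fell, the keratins *Krt33a* (-2.16 ± 0.087), *Krt31* (-1.76 ± 0.089) and *Krt86* (-1.46 ± 0.12), and none rose (median 0.09). With a pseudocount of 0.1 the falls were 5. The summed level of the list was 324 and 339.8 FPKM at P30, 302 and 320.1 in mutant and 4.25 and 4.44 in P56 wild type libraries. The CD45+ libraries of P30 wild type and of P56 mutant skin thus both held transcripts of growing follicles, and those of P56 wild type skin held nearly none.

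**Figure D4:**
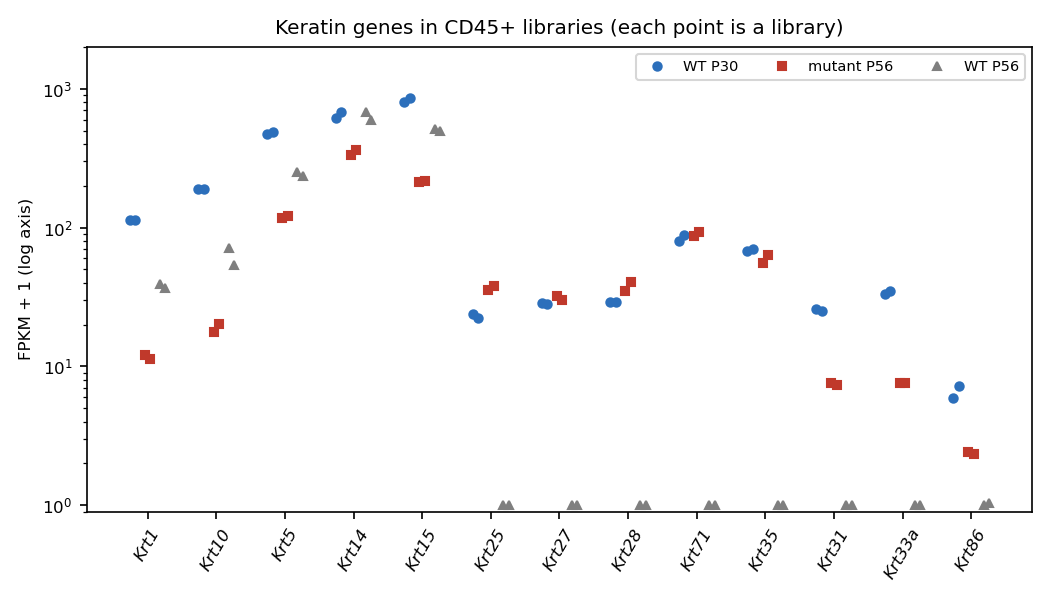
FPKM + 1 (log axis) of keratin genes in each CD45+ library, with circles for P30 wild type, squares for P56 mutant and triangles for P56 wild type libraries. Epidermal keratins are lowest in mutant libraries, and keratins of the growing hair are at 0 FPKM (1 on the axis), or in *Krt86* at most 0.03 FPKM, in P56 wild type libraries.

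Markers of other non-immune cells moved in both directions. Melanocyte markers fell in 3 of 10 tested members and rose in 1 (median -0.68), with summed levels of 104 and 99.2 FPKM at P30, 69.05 and 68.5 in mutant and 18.9 and 20.1 in P56 wild type libraries, so mutant libraries stood below wild type of P30 and above wild type of their own age. *Trpm1* (-1.49 ± 0.11), the pigment granule gene *Pmel* (15.2 and 16.6 to 4.75 and 5.42, -1.47 ± 0.105, with 0.38 and 0.33 in P56 wild type) and *Slc45a2* (-1.07 ± 0.12, past the filter through the P30 libraries only) fell, and the 1 that rose was *Kit*, which mast cells share. Fibroblast markers fell in 4 of 9 tested members and rose in 2 (median -0.22): the collagen genes *Col1a1* (30.8 and 33.2 to 5.13 and 5.68, -2.36 ± 0.098) and *Col1a2* (-1.43 ± 0.11) and the matrix gene *Sparc* (-1.62 ± 0.06) fell, and *Mfap5* rose (1.5 ± 0.14). Of 10 endothelial markers 5 were tested and 5 called higher, *Flt1* among them passing the filter through the mutant libraries only. They included *Plvap* (1.58 and 1.44 to 10.7 and 14.5, 2.42 ± 0.15), *Flt1* (1.62 ± 0.202), *Egfl7* (1.52 ± 0.15) and *Cldn5* (1.32 ± 0.14), while *Cdh5*, *Kdr*, *Tek*, *Tie1* and *Emcn*, which define the type, did not pass it. Mural cell markers gave 1 fall, *Pdgfrb* (-1.16 ± 0.11), which passed the filter through the P30 libraries only, among 6 tested (median 0.21), and of the Schwann cell markers 2 were tested, *Mbp* (0.48 ± 0.075) and *Ngfr* (0.32 ± 0.101), neither called. Globin genes fell in all 4 tested members (median -2.86), *Hba-a1* (-3.19 ± 0.49), *Hba-a2* (48.3 and 43.6 to 5.87 and 4.84, -2.89 ± 0.16), *Hbb-bs* (-2.84 ± 0.37) and *Hbb-bt* (-2.76 ± 0.17, past the filter through the P30 libraries only), pairs of near copies whose split of reads is uncertain. The part of these cells in the differences above was not tested.

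The series also holds myeloid cells sorted from the same groups, with no library in common with the CD45+ table. The tables were made separately, so their changes are set side by side. Among myeloid cells, 1149 of 10848 tested genes were called (10.6%), 375 higher (3.46%) and 774 lower (7.13%), with a median change of -0.14. Under median-ratio scaling, with a median of -0.01, the myeloid split was 508 higher and 545 lower. Of the 1161 genes higher in CD45+ cells 1022 were tested in the myeloid table, where 111 were called higher (10.9%, against 2.97% of the 10521 genes tested in both tables) and 45 lower (4.40%, against 7.18%). Of the 312 genes higher in myeloid cells and tested in both tables, those 111 were 35.6%. Of the 1076 genes lower in CD45+ cells 699 were tested there, and 86 were called lower (12.3% against 7.18%, and 11.4% of the 755 myeloid falls) and 34 higher (4.86% against 2.97%). The CD45+ falls were thus above the share of all genes in both directions.

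Some named genes that macrophages express were higher in both tables. In the myeloid table macrophage markers gave 1 rise and 2 falls among 20, alternative activation 1 rise and 3 falls among 13, phagocytosis and scavenger receptors 2 rises and 2 falls among 15, and matrix proteases and inhibitors 6 rises and 1 fall among 17. In myeloid libraries *Spp1* was 201 and 255 FPKM at P30 and 594 and 581 in mutant mice (1.37 ± 0.12, adjusted p = 0.000429), *Mmp12* rose there from 320.5 and 275 to 912 and 904 (1.61), and *Arg1* from 0.48 and 0.41 to 22.1 and 22.4 (4.01). *Trem2* (3.41), *Ctsk* (3.35), *Atp6v0d2* (3.68) and *Fabp4* (1.9) were called higher there too, and 9 of 29 genes of lysosomes and lipid handling were. Genes of T cells and Langerhans cells had other values there. Of 9 regulatory T cell markers 2 were called higher, *Ctla4* (2.1) and *Tnfrsf4* (1.33), and none of 4 type 17 markers was. *Il17a* was 3.47 and 3.87 FPKM at P30 and 4.11 and 3.21 in mutant myeloid libraries (-0.01), and *Cd8a* 1.21 and 0.93 at P30 and 0.84 and 1.38 in mutant ones (0.02). *Cd207* was 158 and 140.3 at P30 and 219 and 226 in mutant libraries (0.58 ± 0.093, not called), and 1 of 5 Langerhans cell markers, *Mfge8*, was called, as higher (1.49). Monocyte markers rose in none of 10 and fell in 1, and interferon-response genes rose in 2 of 25 and fell in 3. The Y-linked genes *Ddx3y*, *Eif2s3y* and *Uty* were at 0 in every myeloid library.

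**Figure D5:**
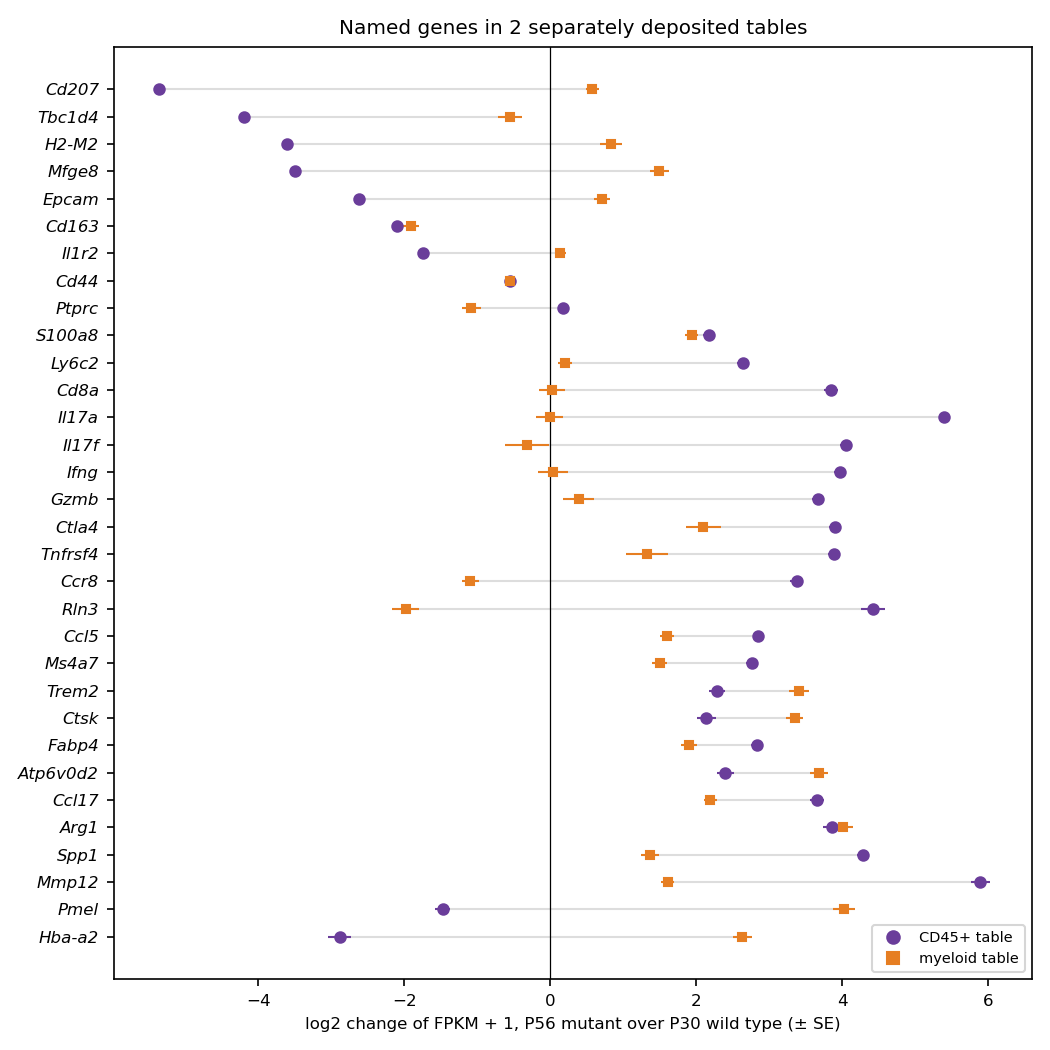
Log2 change of FPKM + 1 (P56 mutant over P30 wild type) with its SE for named genes in the CD45+ table (circles) and the myeloid table (squares), each table fitted on its own libraries. *Spp1*, *Mmp12* and *Arg1* lie right of 0 in both tables, and *Cd207*, *Mfge8*, *Il17a* and *Cd8a* lie apart between tables.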

How the data were processed

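Bulk RNA sequencing of CD45+ cells sorted from mouse dorsal skin was analysed, 2 libraries each of wild type P30, wild type P56 and mutant P56 mice, beside the same groups of myeloid cells. The sources used here do not give the sort gate. The authors made full-length cDNA from sorted cells, used STAR 2.4.2 (per the labels) to align the paired reads to GRCm38, and quantified genes with RSEM. The deposited tables hold FPKM, without read counts, so library depth is unknown and no counting interval can be given. Low values showed no steps of whole reads, with at most 2.96% of genes in a log2 bin of ratios. The study's methods speak of biological triplicates, whereas the tables hold 2 libraries per group and the labels do not tie these to separate mice, so p-values measure the spread between these libraries, which may be technical.

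Protein-coding genes with 1 FPKM or more in at least 2 of the 4 libraries compared were tested with limma 3.58.1 (R 4.3.3) on log2(FPKM + 1), a pseudocount of 1 that understates changes of low genes, with 1 mean per group over the 6 CD45+ libraries and a variance trend. Tests were two-sided. The fit was tested on simulated data. Scaling, pseudocount, filter, gene types, replicate block and leaving out each library were varied.

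Named are the 12 called genes that rose most and the 12 that fell most (5 FPKM or more in the higher group, libraries apart), up to 4 called members of each list with the largest change, or 2 with the highest level where none was called, and *Spp1*, *Cd44*, *Ptprc*, *Nras*, *Xist* and *Ddx3y*. Others named in a list, and *Eif2s3y* and *Uty*, were chosen once their values had been seen. The comparison, its members and the 42 gene lists (604 genes, 558 tested, 224 called) were chosen with earlier results of these data known. Positions are from GENCODE on GRCm38. Of the named genes 17 overlap another annotated gene, *Mmp12* (*Mmp1b*), *Psmb9* (*Tap1*) and *Pmel* (*Cdk2*) among them, so their values are uncertain, since use of strand in counting is not stated. Symbols turned into dates by a spreadsheet, 27 in the CD45+ table, were restored from gene identifiers. Some genes that this rule names are not reported here.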

Additional observations from a re-analysis of the deposited data

Results flagged for a closer look

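Genes that are not protein-coding were outside the main comparison, and when all gene types were fitted together 899 of them were tested, 175 called higher and 51 lower in mutant cells. In the main comparison 9.46% of the 12272 protein-coding genes were called higher and 8.77% lower. Of the 175 genes, 58 stood above all 4 wild type CD45+ libraries at a mean of 5 FPKM or more, a share not computed for protein-coding genes. The 5 with the largest change were the long non-coding genes *Gm11707* (0 and 0 FPKM at P30, 11.6 and 13.1 in mutant and 2.35 and 1.93 in P56 wild type libraries, log2 change 3.74) and *AW112010* (27.9 and 27.2 FPKM at P30, 333 and 365 in mutant and 64.6 and 60.7 in P56 wild type libraries, log2 change 3.61), the processed transcripts *AA465934* (2.05 and 3.82 FPKM at P30, 36.6 and 38.7 in mutant and 35.96 and 30.7 in P56 wild type libraries, log2 change 3.33) and *Gm14005* (3.35 and 3.61 FPKM at P30, 39.4 and 34.5 in mutant and 14.3 and 11.8 in P56 wild type libraries, log2 change 3.08), and the antisense gene *Slc36a3os* (1.52 and 0.94 FPKM at P30, 15.2 and 12.1 in mutant and 0.99 and 0.95 in P56 wild type libraries, log2 change 2.72). Whether counting used strand is not stated, so reads of *Slc36a3os* and of the gene it overlaps may not be told apart.

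Some named genes changed past the threshold in opposite directions in the CD45+ and the myeloid tables, in both libraries of each group. The difference between the tables was not tested. Globin genes were lower in mutant CD45+ and higher in mutant myeloid libraries, with log2 changes of -3.19 and 2.19 for *Hba-a1*, -2.89 and 2.63 for *Hba-a2*, -2.84 and 2.76 for *Hbb-bs* and -2.76 and 3.43 for *Hbb-bt*. Pigment cell genes did the same, with -1.47 and 4.02 for *Pmel*, -1.49 and 2.96 for *Trpm1* and -1.07 and 2.56 for *Slc45a2*, as did *Mfge8* with -3.49 and 1.49. The reverse held for *Rln3* (4.42 and -1.98), the chemokine receptor gene *Ccr8* (3.38 and -1.1), *Kit* (1.34 and -1.32), *Cpa3* (1.08 and -3.12) and *Siglech* (1.11 and -1.53). Of 15 mast cell markers 12 fell and 1 rose in the myeloid table (median -1.79), against 3 rises and 2 falls in the CD45+ table.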

How the results depend on the processing

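Among 2237 called genes, 1161 higher and 1076 lower, the count lay between 2203 and 3020 over the alternatives in how values were scaled, filtered or fitted, and every one stayed within 1.5 times of the reported count. A pseudocount of 0.1 gave 3020 (1520 higher, 1500 lower), and 2230 of the 2237 genes were called there too. Median-ratio scaling gave 1046 higher and 1157 lower. Leaving out each library in turn gave 2238 to 2265 genes, 1116 to 1231 higher and 1034 to 1148 lower. The myeloid count of 1149 became 1847, with 1306 lower, at a pseudocount of 0.1, and 1139 to 1398 when a library was left out. *Spp1* kept its direction and its call throughout, with log2 changes of 4.12 to 4.37. No named gene that was called changed direction. Called genes near 2-fold fell under the threshold in 6 cases under median-ratio scaling (*Rrm2*, *Kif11*, *Blvra*, *Cd80*, *Eno1*, *Mvd*), in 6 under quantile normalization (*Cd74*, *Blvra*, *B2m*, *C5ar1*, *Eno1*, *Slc45a2*) and in 3 to 6 when a P30 wild type or mutant library was left out. The cause was not tested. A pseudocount of 0.1 moved 12 list counts. Among them, falls of hair matrix and shaft genes and of melanocyte markers each went from 3 to 5, and rises of mural markers from 0 to 3. A left-out library moved counts of 4 or fewer in some lists. The fall among complement genes went from 1 to 0 without P30 replicate 2 or without mutant replicate 1. Falls of clock genes went from 4 to 2, of MHC class II genes (*Cd74*) from 1 to 0 and rises of fibroblast and stress genes from 2 to 1 without P30 replicate 2, and without mutant replicate 2 rises of MHC class II and DNA replication genes went from 2 to 1, of cholesterol genes and the fall of *Cp* from 1 to 0, and rises of follicle growth factors from 1 to 2, while falls of eosinophil markers went from 1 to 2 and of cytokines from 0 to 1. Without P30 replicate 1, rises went from 2 to 1 in MHC class II and from 1 to 2 in follicle growth factors, and falls of cell cycle inhibitors from 0 to 1. *Fgf7* and *Wnt7b* each lost the call without 1 P30 library, and *Fgf7* without mutant replicate 2. Replicate numbers are shared by the groups, but deviations of same-numbered libraries correlated at -0.097 to 0.078, so the numbers were not taken as pairs. With the replicate block 2240 genes were called, and no call of a named gene changed. Without read counts, what depth limits could not be computed.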

Other observations

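Clock genes moved in both directions, 5 rose and 4 fell of 17 tested (median -0.32), and 2 of the rises (*Bhlhe41* and *Hlf*) passed the filter through the mutant libraries only. The repressor genes *Cry2* (32.02 and 27.9 to 5.01 and 4.91 FPKM, -2.37 ± 0.086) and *Per1* (80.7 and 87.7 to 26.03 and 27.2, -1.62 ± 0.072) fell, as did *Per2* (-1.09 ± 0.18) and *Tef* (-1.0 ± 0.102), and without P30 replicate 2 the list had 2 falls. *Bhlhe40*, a repressor that activated T cells and macrophages also use, rose (49.7 and 51.03 to 211 and 209, 2.04 ± 0.052). Of all tested genes 9.46% were called higher and 8.77% lower. In cell division lists 4% of mitosis genes were called higher, and 10% of DNA replication genes were called higher and 5% lower. In mitosis 1 rose and 0 fell of 25 tested (median 0.35), *Kif11* (1.01 ± 0.098), with 0 rises under median-ratio scaling and 2 without either P30 library or mutant replicate 2. *Mki67*, the proliferation marker, was 2.08 and 1.68 FPKM at P30 and 3.69 and 3.52 in mutant libraries. In DNA replication 2 rose and 1 fell of 20 tested (median 0.202): *Cdc6* (1.3 ± 0.16, past the filter through the mutant libraries only), *Rrm2* (1.05 ± 0.082) and, falling, *Rrm1* (56.2 and 56.8 to 17.1 and 17.6, -1.65 ± 0.056). Of 8 cell cycle inhibitors (median 0.26) 1 rose, *Cdkn1b*, from 6.7 and 5.8 to 37.2 and 28.9 (2.22 ± 0.13), and it was 32.9 and 37.2 in P56 wild type cells.

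Stress and immediate early genes gave 2 rises and 3 falls among 20 (median -0.09). The factor genes *Jund* (142 and 143 to 40.03 and 38.1 FPKM, -1.84 ± 0.054), *Nr4a2* (-1.39 ± 0.048) and *Fosb* (-1.33 ± 0.058) fell and the chaperone gene *Hsph1* rose (1.23 ± 0.087). In glycolysis and hypoxia 2 rose and 1 fell of 18 tested (median 0.41), with *Ndrg1* falling from 141 and 146 to 27.5 and 32.98 (-2.21 ± 0.084) and *Ero1l* (1.14 ± 0.077) and *Eno1* (1.01 ± 0.056) rising. In cholesterol synthesis 1 rose and 2 fell of 17 tested (median 0.11), *Mvd* (1.01 ± 0.083) against *Scd2* (-1.4 ± 0.069) and *Hmgcs1* (-1.36 ± 0.071). In iron and haem handling 2 rose and 1 fell of 11 tested (median 0.07): the phagosome iron transporter gene *Slc11a1* (27.7 and 26.4 to 112 and 129, 2.11 ± 0.088), *Blvra* (1.05 ± 0.061) and, falling, *Cp* (-1.05 ± 0.13). In complement 3 rose and 1 fell of 13 tested (median 0.601): *Cfb* (18.1 and 18.9 to 67.7 and 64.7, 1.79 ± 0.096), *C3* (1.31 ± 0.201) and *C5ar1* (1.18 ± 0.074) were those that rose. In alternative activation 3 rose and 1 fell of 13 tested (median 0.27). These were *Arg1*, *Chil3* and *Pdcd1lg2* (1.07 ± 0.14, past the filter through the mutant libraries only), with *Cd163* falling.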
